A study of Mus musculus with 4 samples.

Results

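Classical monocytes are the circulating phagocytes that carry Ly6C on their surface. They arise in the bone marrow from granulocyte and monocyte progenitors through a dividing precursor stage, leave the marrow through the chemokine receptor CCR2, and can become macrophages, dendritic-type cells, nonclassical monocytes or, under M-CSF and RANKL, osteoclasts. The cells described here are the classical monocytes of mouse bone marrow in which no transcript of 3 proliferation genes was seen. They numbered 1576 among the 39167 cells kept from 4 libraries, or 4.02%.

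A cell was counted as a member when it held at least 5 UMIs (unique molecular identifiers, each marking 1 captured transcript) of Lyz2, at least 3 of Ly6c2 and at least 2 of Ccr2, Csf1r, F13a1 and Fn1 together. It had to hold no UMI of Mki67, Top2a and Birc5, fewer than 10 of the progenitor genes Mpo, Elane, Prtn3 and Ctsg, at most 2 of the complement C1q genes and at most 1 of Ace and Treml4, and the neutrophil granule genes Camp and Ngp had to stay under 1% of its UMIs. The levels of these 20 genes chose the cells and are given below without a test. At the edge of the rule, 137 members held exactly 3 UMIs of Ly6c2, while 125 cells that met every other condition held 2. There were 21 members with exactly 2 UMIs of the Ccr2, Csf1r, F13a1 and Fn1 sum and 21 cells outside with 1. The proliferation genes set the widest boundary, since 1231 cells failed only that condition, of which 187 held a single UMI of them.

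The study concerned bone in mice without Toll-like receptor 9, an endosomal sensor of unmethylated CpG DNA, and looked for osteoclast precursors in their marrow. Mononuclear bone marrow cells came from 2 TLR9-/- mice, which carry a disrupted Tlr9 allele in every cell, and 2 wildtype (WT) mice. All were C57BL6/J mice and none was treated. Each mouse gave 1 library, sequenced from the 5′ side of the captured transcripts. They were profiled over 2 experiments with a mouse of each genotype in both, but the labels do not say whether the library number marks the experiment. The 2 genotypes were bred in separate cages, so cage and genotype cannot be told apart. The age of these mice was not given in the sources used here, nor was the part of the gene that the disrupted allele lacks.

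Single-library values are given in the order TLR9-/- 1, TLR9-/- 2, WT 1 and WT 2. The libraries held 505, 538, 326 and 207 members with 1694400, 2205013, 942974 and 691150 UMIs in total, and the median member held 3199, 3884, 2638.5 and 3121 UMIs. The WT libraries thus had fewer members and less depth behind each value, and WT library 2 had the least. Mitochondrial transcripts took a median of 1.54%, 1.46%, 1.61% and 1.70% of a member's UMIs. Of the cells kept, 813 shared a barcode with a cell of another library, counted over the 6 library pairs, but only 1 such match was between members.

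The levels of the 4 defining markers were set in part by the rule and do not test the label. The median member held 74, 89, 55 and 63 UMIs of Lyz2 (lysozyme) and 10, 11, 12 and 7 of Ly6c2. Ccr2 was seen in 90.9%, 92.4%, 83.4% and 88.9% of members and Fn1, which encodes fibronectin, in 94.5%, 95.5%, 84.0% and 97.1%. Nonclassical monocytes, chosen by Ace and Treml4, numbered only 27 in all 4 libraries and were not compared.

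Among genes at 100 or more UMIs per 1000000 in the members of every library, and relative to all other cells of the same library, the members were led by Ms4a8a, a 4-span membrane protein, whose UMIs per 1000000 were 25.5 to 43.7 times as high. The C-type lectin receptors Clec4a3 (19.0 to 24.1 times) and Clec4a1 (18.7 to 23.8 times), the Ly49 family member Klra2 (17.4 to 26.5 times) and the Schlafen gene Slfn5 (16.6 to 20.7 times) followed. Further leading genes were Lrp1, an endocytic receptor, Pid1, Pla2g7, which encodes the acetylhydrolase of platelet-activating factor, Ms4a4c, S100a4, Gm9733, Apoe and the antiviral membrane protein Ifitm3, each at least 8.16 times as high in every library. Fn1 and Ccr2, which belong to the rule, were also among these 15 genes. No test was made, since the members were chosen by their transcripts.

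The closest neighbours of the members were the 1231 cells that met every condition but held 1 or more UMIs of the proliferation genes (439, 371, 227 and 194 cells). These cycling counterparts were larger in RNA, with a median of 5733, 6755, 5033 and 5818 UMIs per cell. Summed and scaled to the UMIs of the class, 26 S phase and other cycle genes that were not part of the rule were 0.225, 0.209, 0.217 and 0.221 times as high in the members as in the cycling cells. The cycle genes were thus low in the members of all 4 libraries.

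The opposite order was seen for the nonclassical monocyte, interferon-stimulated and MHC class II lists. The nonclassical monocyte list was 3.32, 3.52, 3.22 and 2.49 times as high in the members as in the cycling cells. It includes Ace and Treml4, which the rule kept low in both classes. Apoe, the lipid carrier apolipoprotein E, held 61.3%, 65.4%, 56.2% and 70.3% of that list's UMIs in the members, and without it the ratios were 1.71, 1.65, 2.03 and 1.39. Spn, also of the list, went the other way, with 34.5 and 42.4 CPM in the TLR9-/- members against 80.6 and 87.9 in the TLR9-/- cycling cells. The interferon-stimulated list was 2.03, 1.74, 1.77 and 1.93 times as high in the members, and MHC class II transcripts 4.90, 2.23, 3.16 and 1.90 times. The median cell held 1 UMI of the MHC class II list in both classes of every library, so its ratios do not describe the typical member. The 4 richest cycling cells held 37.2%, 36.4%, 41.2% and 35.5% of the UMIs of that list in their class. Among single genes Slfn5 was 5.80 to 7.10 times as high in the members, Apoe 3.74 to 8.78 times, Wfdc17 2.79 to 3.85 times and Irf7, a transcription factor of the interferon response, 2.42 to 4.55 times. Samhd1, which depletes deoxynucleotides, was 2.06 to 2.71 times as high. Glycolysis and heat shock lists stayed at 0.919 to 0.992 and 0.908 to 0.941 times the level of the cycling cells. Both classes were cut by counts of transcripts, so these ratios are a description.

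**Figure D1:**
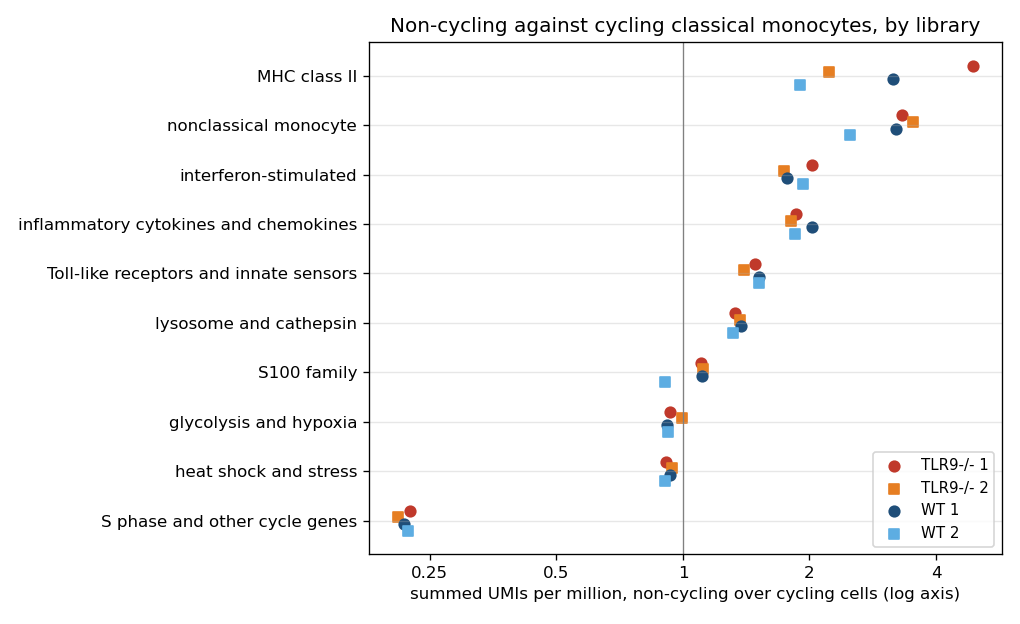
Ratio of summed UMIs per 1000000 in non-cycling members to that in cycling cells of the same gate (x axis, log scale) for 10 gene lists (rows), 1 point per library. The nonclassical monocyte list lies at 2.49 to 3.52 in the 4 libraries (1.39 to 2.03 without Apoe), while S phase and other cycle genes lie at 0.209 to 0.225.

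The members were not all alike. In cells thinned to 2000 UMIs, the genes whose counts varied most for their mean in all 4 libraries were Hbb-bs, Hba-a1, Hba-a2, Cd74, Gm42418 and S100a8. Hbb-bs and the Hba genes encode the globins of red cells, and the 4 members richest in globin held 88.3%, 88.4%, 79.9% and 94.8% of all globin UMIs found in members. MHC class II was uneven too, although its 4 richest members held only 23.4%, 18.8%, 28.8% and 47.7% of its UMIs, with a median of 1 UMI per thinned member in each library and a maximum of 209, 116, 212 and 86. Of the genes of monocytes themselves, Lyz2, Chil3, Apoe and Ifi27l2a, an interferon-induced gene, were also among the 13 most variable. The interferon-stimulated list had a median of 10, 12, 17 and 7 UMIs per thinned member, and a 90th percentile of 22, 25, 32.9 and 21. Gm42418, a transcript that overlaps ribosomal RNA, was at 4215, 20955, 3901 and 18196 UMIs per 1000000, so the libraries numbered 2 stood well above those numbered 1 in both genotypes.

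The first question between genotypes was how many of these monocytes the marrow held. They made up 4.68%, 6.03%, 3.08% and 2.33% of all cells, and both TLR9-/- libraries lay above both WT libraries. The 95% Clopper-Pearson intervals, which cover counting error only, were 4.29 to 5.10, 5.55 to 6.55, 2.76 to 3.43 and 2.02 to 2.66. The means were 5.36% ± 0.954 (SD, n = 2) in TLR9-/- and 2.71% ± 0.535 (SD, n = 2) in WT, a ratio of 1.98, with 1.52 and 2.59 for the libraries of the same number. An exact permutation test over libraries, two-sided, gave p = 0.33, the smallest value that 2 against 2 can give. In cells thinned to 2000 UMIs before the rule was applied, the ratio was 1.59. Thinning also dropped every cell with fewer than 2000 UMIs, which left 6365, 6312, 4675 and 4827 cells. With that cut alone and no thinning, the ratio was 1.66.

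The other denominators gave ratios near 1. Of the cells with at least 5 UMIs of Lyz2, a cut meant to leave out lymphoid and erythroid cells, the members made up 15.7%, 14.1%, 18.1% and 9.25%. Some cells past this cut still carried such transcripts, as the richest member of WT library 1 held 2150 UMIs of Igha and Jchain. The genotypes overlapped, with the 2 WT libraries at the highest and the lowest value, and the ratio was 1.09 (exact permutation p = 1.00). Within the monocyte gate itself, 53.5%, 59.2%, 59.0% and 51.6% of cells were non-cycling, a ratio of 1.02 (exact permutation p = 0.67). B cells took 25.6%, 23.3%, 42.0% and 39.99% of all cells, and their part in the difference among all cells was not tested.

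**Figure D2:**
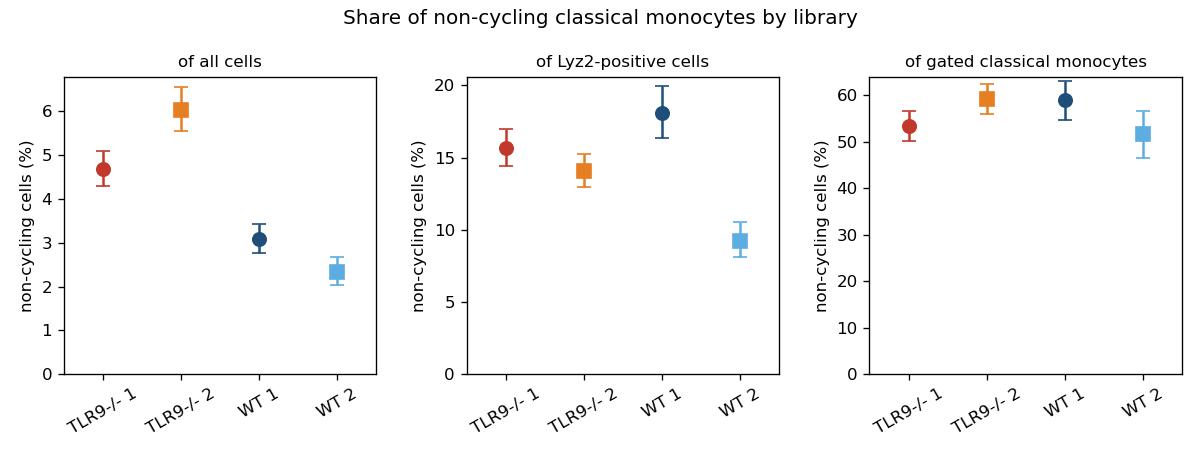
Non-cycling classical monocytes as a percentage of all cells, of Lyz2-positive cells and of gated classical monocytes (3 panels, y axis in percent, from 0), 1 point per library with its 95% Clopper-Pearson interval. The TLR9-/- libraries (4.68% and 6.03%) lie above the WT libraries (3.08% and 2.33%) in the first panel and overlap them in the other 2.

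The second question was which transcripts differed in these cells between the genotypes. UMIs were summed over the members of each library and compared with edgeR's quasi-likelihood test across 7732 genes, with p-values adjusted by Benjamini and Hochberg. In TLR9-/- monocytes 10 genes rose and 18 fell, together 28 genes or 0.362% of those tested (0.129% higher and 0.233% lower). The count was 83 without TLR9-/- library 1, 79 without TLR9-/- library 2, 26 without WT library 1 and 44 without WT library 2, of which 27, 27, 18 and 23 were among the 28. With the library number as a replicate block 88 genes were called, all 28 among them. Of all genes tested 445 (5.76%) had an unadjusted p under 0.05. The median log2 fold change of all genes was -0.01, which the scaling sets near 0.

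Tlr9 itself was rare in these cells. It had 2, 4, 8 and 4 UMIs in all members of a library, or 1.21, 1.84, 8.57 and 5.79 CPM (UMIs scaled to a library size of 1000000), and was too low to be tested. Both TLR9-/- libraries were below both WT libraries. Since the sources used here do not say which part of the allele is missing, the UMIs that remained do not test the labels.

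The largest group that fell was the TRIM5-like genes of chromosome 7, whose proteins include restriction factors that bind retroviral capsids. Trim12a had 0, 1, 52 and 24 UMIs, a WT to TLR9-/- ratio of 179 with a counting interval of 31.2 to 7165, and an adjusted p of 0.00272 by edgeR's test. Trim30d had 3, 3, 43 and 22 UMIs (1.81, 1.38, 46.1 and 31.9 CPM) and a log2 fold change of -4.58 (standard error 0.44, edgeR adjusted p = 0.00319). Both were close to absent in the TLR9-/- members and present in both WT libraries. Trim5 had 1, 0, 15 and 12 UMIs (ratio 63.6, counting interval 10.5 to 2605, edgeR adjusted p = 0.0168). Trim34a had 6, 5, 35 and 14 UMIs (log2 fold change -3.32, standard error 0.47, edgeR adjusted p = 0.0267). For each of these genes the 2 genotypes did not overlap, as was so for 16.8% of all tested genes in the lower direction. Trim5 was not called with DESeq2 (adjusted p = 0.0897) or with members thinned to 2000 UMIs (edgeR adjusted p = 0.0590), nor was Trim34a with thinned members (0.0544) or without WT library 1.

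Of the 10 genes listed for this cluster, 6 were tested and these 4 fell, beside 0.233% of all genes, with a median log2 fold change of -3.95 over the 6. This list, like the others used here, was chosen with earlier results of these data known, so its share is a description and no test. The other 2 tested members did not pass the threshold. Trim30a, a negative regulator of Toll-like receptor signalling, was at 113, 106, 199 and 106 CPM (log2 fold change -0.49, standard error 0.28, edgeR adjusted p = 0.924). Trim12c was at 59.9, 57.1, 68.6 and 42.0 CPM (log2 fold change 0.05, standard error 0.26, edgeR adjusted p = 1.00). Trim34b was seen in TLR9-/- alone, with 4, 7, 0 and 0 UMIs, which is too few to test. The transcripts of these neighbours are alike, with identical runs of up to 172 bases between Trim12a and Trim5, 275 between Trim30d and Trim30a and 221 between Trim34a and Trim34b, so the split of UMIs between such pairs is uncertain.

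The start regions of the 4 genes that fell are shown because they moved together. Each runs from 100 bases before to 50 after the RefSeq start (GRCm38.p6), 5′ to 3′ on the gene's strand, with capitals marking a match to GAAA, any 2 bases and GAAA, or to its reverse complement TTTC, any 2 bases and TTTC, the core of the interferon-stimulated response element.
Trim12a, chr7:104315446-104315595, minus strand: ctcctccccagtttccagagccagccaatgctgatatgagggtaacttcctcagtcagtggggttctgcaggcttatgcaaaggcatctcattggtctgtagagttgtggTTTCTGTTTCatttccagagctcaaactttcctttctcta
Trim5, chr7:104288057-104288206, minus strand: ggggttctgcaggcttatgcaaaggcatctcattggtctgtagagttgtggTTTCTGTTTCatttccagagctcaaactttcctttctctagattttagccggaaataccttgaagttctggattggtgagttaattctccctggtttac
Trim30d, chr7:104507800-104507949, minus strand: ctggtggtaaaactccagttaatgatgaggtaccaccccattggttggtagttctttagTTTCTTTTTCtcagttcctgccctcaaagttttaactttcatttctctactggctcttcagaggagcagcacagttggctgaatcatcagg
Trim34a, chr7:104244357-104244506, plus strand: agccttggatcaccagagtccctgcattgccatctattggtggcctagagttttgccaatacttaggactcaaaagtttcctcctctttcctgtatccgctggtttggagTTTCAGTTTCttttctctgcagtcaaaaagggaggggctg

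All 4 windows held 1 match, while 1.46% of the 32851 RefSeq start windows of this length held one. The 300-base windows of Trim12a and Trim5 shared an identical run of 241 bases, so they are not separate examples. Of the 35 interferon-stimulated genes with a window, 12 held the letters, and none of the 43 genes of that list that were tested passed the threshold, as given below. The 4 windows were picked because their genes fell, and those of Trim30a and Trim12c, which did not pass the threshold, are not given here. A match describes letters only, and a link between the letters and the fall was not tested.

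Some of the called genes lie close together. In the GENCODE M21 annotation of GRCm38, Trim34a (chr7:104244457-104262234), Trim5 (chr7:104263386-104288094), Trim12a (chr7:104299894-104315466) and Trim30d (chr7:104470014-104507849) lie in a row, and the globin gene Hbb-bt (chr7:103812524-103813996) lies 430460 bases before them. Of the 8 genes tested from Hbb-bt to Trim30d, 5 fell, beside 0.233% of all genes. Called genes set both ends of this span, so the count is raised by how the span was drawn. On chromosome 11, 2 of the genes that rose, St6galnac2 (chr11:116675303-116694868) and the antisense RNA gene BC018473 (chr11:116752167-116759373), lie 57298 bases apart. On chromosome 8, Ocel1 (chr8:71371298-71379361), which rose, and Cyp4f18 (chr8:71988482-72009626), which fell, lie 609120 bases apart. They were 2 of 17 genes tested in that span, whose ends they set, beside 0.362% of all genes. Hba-a1 and Hba-a2 are neighbours on chromosome 11. In all, 11 of the 28 genes lay within 1 Mb of another; no test of their spacing was made. Of the 28, 6 were among the 582 genes tested on chromosome 7 and 5 among the 427 on chromosome 8. Chromosome 11 held 5, among 666 tested, beside 0.362% of all genes. Among the 409 genes tested on chromosome 9, which carries Tlr9, 0 were called, beside 0.362% of all genes.

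Beside the TRIM genes, 8 more genes that fell named themselves by the size of their change. Cyp4f18, a cytochrome P450 that inactivates leukotriene B4, was at 18.1, 31.3, 193 and 207 CPM (log2 fold change -2.99, standard error 0.26, edgeR adjusted p = 0.00272). Padi4, which converts arginine to citrulline on histones, was at 5.44, 8.75, 35.4 and 46.4 CPM (log2 fold change -2.46, standard error 0.34, edgeR adjusted p = 0.0267). Galnt9, a transferase that starts mucin-type sugar chains, had 0, 0, 22 and 18 UMIs and was at least 31.4-fold lower, taking 3 UMIs over the TLR9-/- group as the floor. All 3 were separate between the genotypes, as were 16.8% of all genes in this direction, and Padi4 was not called with members thinned to 2000 UMIs (edgeR adjusted p = 0.143). Plekhg1 had 0, 1, 32 and 10 UMIs (ratio 99.0, counting interval 16.8 to 4001, edgeR adjusted p = 0.0168). The long non-coding RNAs Gm34084 (1, 0, 30 and 28 UMIs) and Gm42031 (62, 51, 139 and 129 UMIs, log2 fold change -2.47) fell as well. The other 2, Hbb-bt and Hba-a1, are taken up with the red cell transcripts.

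Among the genes that rose, Arsb, the lysosomal arylsulfatase B that breaks down dermatan and chondroitin sulfate, had the smallest adjusted p together with BC018473. It was at 183, 165, 27.9 and 24.6 CPM, a log2 fold change of 2.71 (standard error 0.22, edgeR adjusted p = 0.00272). Hpgd, which inactivates prostaglandins, was at 164, 170, 66.4 and 43.5 CPM (log2 fold change 1.58, standard error 0.23, edgeR adjusted p = 0.0307), and was not called with members thinned to 2000 UMIs (edgeR adjusted p = 0.127). Ocel1 was at 123, 139, 32.1 and 42.0 CPM (log2 fold change 1.84, standard error 0.23, edgeR adjusted p = 0.0147). The TLR9-/- libraries were close to each other and above both WT libraries for all 3, as they were for 18% of all genes.

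Borcs8, a subunit of the complex that moves lysosomes, rose by less, with 122, 135, 53.6 and 56.5 CPM and a log2 fold change of 1.23 (standard error 0.20, edgeR adjusted p = 0.0490). Adat2, a subunit of the deaminase that edits the anticodon of tRNA, and Mid1, a ubiquitin ligase at the end of the X chromosome, had log2 fold changes of 1.63 (standard error 0.26, edgeR adjusted p = 0.0490) and 2.47 (standard error 0.38, edgeR adjusted p = 0.0394). Borcs8, Adat2 and Mid1 were no longer called when either WT library was left out. A further 4 genes were seen in TLR9-/- alone. BC018473 had 120, 177, 0 and 0 UMIs and was at least 42.0-fold higher, Gm35082, a long non-coding RNA, had 40, 110, 0 and 0 (at least 21.2-fold), and the sialyltransferase St6galnac2 27, 38, 0 and 0 (at least 9.20-fold), each against 3 UMIs over the WT group. Gm6594, a processed pseudogene whose reads may come from its parent gene, had 22, 31, 0 and 0 and was not called when any 1 library was left out. St6galnac2 was not called without WT library 1.

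The remaining genes that fell did not meet the rule for named genes by size, or came in by the lists. Per1, a component of the circadian clock, was at 10.3, 9.21, 34.3 and 42.0 CPM. Fkbp5, a co-chaperone of the glucocorticoid receptor, was at 37.5, 42.8, 99.6 and 99.95 CPM, and Cndp2, a cytosolic dipeptidase, had 38, 48, 84 and 57 UMIs. Their log2 fold changes were -1.95, -1.31 and -1.94, with standard errors of 0.30, 0.20 and 0.22. The long non-coding RNA Gm19951 had 0, 0, 17 and 7 UMIs. Per1 was not called without WT library 2, nor Fkbp5 without WT library 1. These 4 were named after their values were seen.

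**Figure D3:**
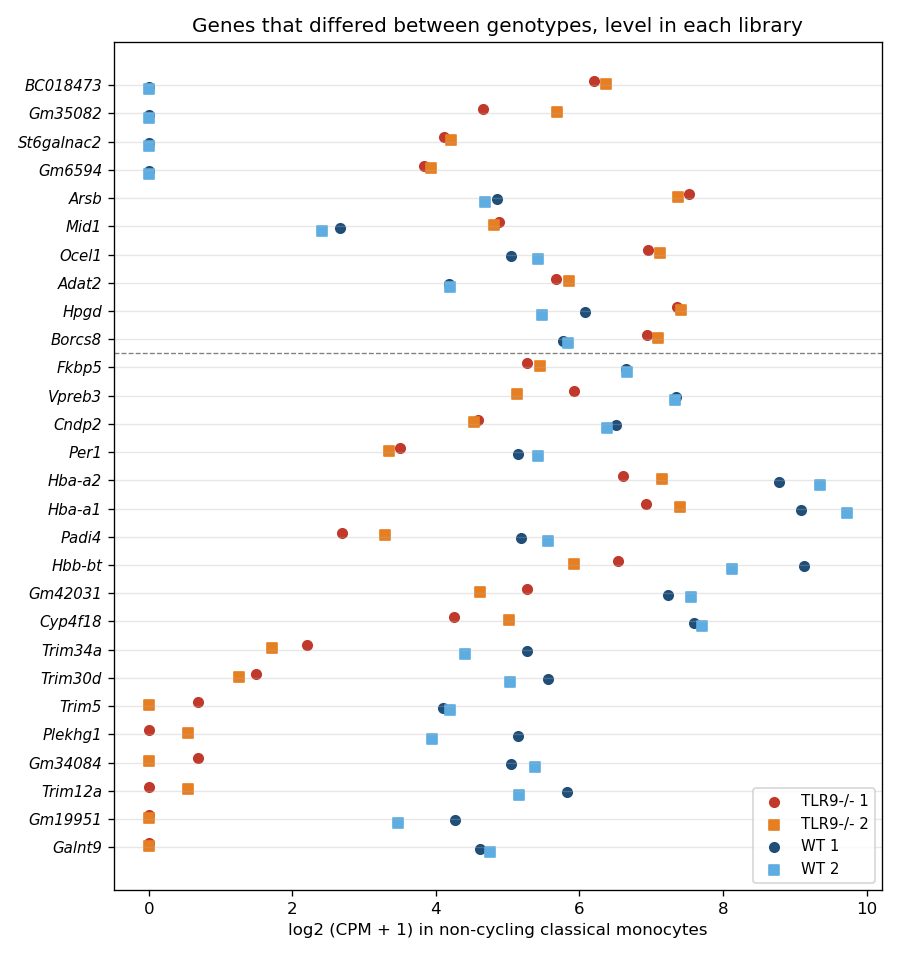
Level of the 28 genes that differed between genotypes, as log2 (CPM + 1) in non-cycling classical monocytes (x axis), 1 point per library, with genes that rose in TLR9-/- above the dashed line and genes that fell below it. A gene listed at 0 UMIs lies at 0, as BC018473 does in both WT libraries and Galnt9 in both TLR9-/- libraries.

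Red cell and B cell transcripts moved with the genotype in the same cells. Of the erythroid marker list, 3 of the 7 genes tested fell (Hbb-bt, Hba-a1 and Hba-a2), beside 0.233% of all genes, and the other 4 had negative fold changes, with a median log2 fold change of -2.20. The list summed to 1316, 750, 6208 and 3482 CPM, and Hbb-bs was its most abundant gene. The globins were present in cells that do not make them, at 3149, 2422, 14120 and 3264 UMIs per 1000000 in B cells, against 1251, 726, 6071 and 3391 in the members and 10435, 3844, 38671 and 8504 in all cells. When the members with 3 or more UMIs of lymphoid, erythroid, basophil or megakaryocyte markers were left out, 1214 members remained, in which the log2 fold changes were -1.40 for Hbb-bt, -1.54 for Hba-a1 and -2.38 for Hba-a2 and none passed the threshold (edgeR adjusted p = 0.986, 0.655 and 0.0840). The cells left out were chosen by their globin UMIs among others, so this is no test of the globins. In the same cells 18 genes were called, 16 of them among the 28. Trim12a, Trim30d, Cyp4f18 and Arsb were still called, whereas 7 other genes were not, at log2 fold changes of -2.93 for Trim34a (edgeR adjusted p = 0.0942), 1.41 for Hpgd (0.0835), 3.60 for Mid1, 1.35 for Borcs8 and -1.90 for Per1, while St6galnac2 (0.0565) and Gm6594 (0.155) had no UMI in WT to set a fold by. Trim5 has no value there. The transcripts of Hba-a1 and Hba-a2 share an identical run of 415 bases, so their UMIs are uncertain between the pair.

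Of the 9 B lineage markers, 1 fell, beside 0.233% of all genes, and all had negative fold changes, with a median log2 fold change of -1.07. Vpreb3, a part of the pre-B cell receptor pathway, was at 59.9, 34.1, 162 and 161 CPM (log2 fold change -1.80, standard error 0.27, edgeR adjusted p = 0.0324). It was not called with members thinned to 2000 UMIs (edgeR adjusted p = 0.0515) or with members chosen on thinned cells (log2 fold change -1.58, edgeR adjusted p = 0.213). Its 4 richest members held 69.7%, 70.3%, 49.7% and 55.9% of these UMIs, and 493 of 505, 522 of 538, 301 of 326 and 185 of 207 members held none. In the whole libraries it was at 524, 273, 1204 and 943 UMIs per 1000000. The list summed to 591, 515, 1625 and 904 CPM, with Ighm the most abundant. T and NK markers summed to 122, 185, 25.7 and 185 CPM and neutrophil markers to 1251, 1661, 1154 and 1621, the latter led by Ifitm6, which monocytes also express. Camp stayed at 22.4, 59.0, 25.5 and 123 UMIs per 1000000 by the rule. Xcr1 of the dendritic list and Cd300e of the nonclassical list were at 0.

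Fos, Spi1, Cebpb and Cebpd, which the study followed in monocytes, were tested and not called, although Fos and Cebpd each passed the threshold under 1 alternative. Csf1r, also followed, is a gene of the rule, and Tlr9 and Tnfrsf11a were too low to be tested. Fos, a subunit of the AP-1 transcription factor that osteoclast differentiation needs, was at 720, 191, 356 and 180 CPM, and TLR9-/- library 1 stood apart from the other 3. Its log2 fold change was 0.76 (standard error 0.54, edgeR adjusted p = 0.927). It became -0.48 without TLR9-/- library 1 and 1.43 without TLR9-/- library 2, where it passed the threshold (edgeR adjusted p = 0.00843; its adjusted p over all alternatives ran from 0.00843 to 1.00). In thinned cells, Fos was seen in 70.6%, 31.3%, 47.3% and 28.6% of members against 12.2%, 2.79%, 7.38% and 3.38% of B cells, so both libraries numbered 1 were higher in both cell types.

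Spi1, which encodes PU.1, the transcription factor that commits cells to the myeloid lineage, was at 501, 500, 432 and 316 CPM (log2 fold change 0.42, standard error 0.21, edgeR adjusted p = 0.889). Cebpd, a factor of the acute inflammatory response, was at 382, 380, 260 and 230 CPM. Both TLR9-/- libraries were above both WT libraries for these genes, as they were for 18% of all genes tested. The log2 fold change of Cebpd was 0.63 (standard error 0.19, edgeR adjusted p = 0.651, unadjusted p = 0.00970), and with the library number as a replicate block it passed the threshold (edgeR adjusted p = 0.0420). Cebpb was at 1035, 378, 1017 and 488 CPM, higher in the libraries numbered 1 (log2 fold change -0.10, standard error 0.46). Its sign turned without TLR9-/- library 2 (0.46) and without WT library 1 (0.55). Csf1r, the receptor for M-CSF and a gene of the rule, was at 175, 214, 205 and 209 CPM. Tnfrsf11a, which encodes the RANKL receptor RANK, had only 7, 5, 7 and 5 UMIs in all members and was not tested.

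Most of the 32 gene lists held no called gene. Outside the TRIM cluster, the erythroid and the B lineage lists, 0 genes were called in 29 lists, beside 0.362% of all genes tested. At so low a share, a list without a call is no result about its genes. The classical monocyte identity and the progenitor lists also include genes of the rule, whose levels chose the cells. So do migration and adhesion (Ccr2), growth factor and cytokine receptors (Csf1r), and the nonclassical, macrophage and neutrophil lists. The median log2 fold changes of the 29 lists lay between -0.95 and 0.56, and 20 of the 28 genes belonged to no list. The lower end came from the basophil and megakaryocyte markers, of which only 1 gene was tested. The interferon-stimulated list had 43 tested genes, of which 5 had a positive fold change and 6 had a negative one with an unadjusted p under 0.05, against 5.76% of all genes in either direction, with a median log2 fold change of -0.31. Its sum was 5736, 6658, 10133 and 4973 CPM, so that WT library 1 was the highest and WT library 2 the lowest, and the genotypes overlapped. Isg15, a ubiquitin-like protein induced by interferon, was at 94.9, 123, 291 and 139 CPM (log2 fold change -0.99, standard error 0.32, edgeR adjusted p = 0.694). The HIN-200 genes, which include cytosolic DNA sensors, summed to 961, 856, 1418 and 785 CPM, again with WT library 1 apart.

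Immediate early genes, to which Fos belongs, summed to 3738, 1785, 2353 and 1599 CPM. Of the 17 tested, 13 had a positive log2 fold change, 2 of these had an unadjusted p under 0.05, against 5.76% of all genes in either direction, and the median was 0.56, with TLR9-/- library 1 above the rest. MHC class II summed to 2592, 1600, 3425 and 1185 CPM, and 2 of 9 tested genes had a positive fold change. For both lists the library number and not the genotype separated the sums. The 15 genes of the classical monocyte identity list that took no part in the rule summed to 12375, 13022, 12725 and 10967 CPM, with overlap between the genotypes, 8 positive fold changes and a median log2 fold change of 0.02. Toll-like receptors and innate sensors (25 tested, median -0.04), their signalling genes (28 tested, median -0.05), cytokines and chemokines (11 tested, median 0.05), migration and adhesion (23 tested, median -0.03) and osteoclast precursor genes (19 tested, median 0.00) had no called gene and medians near that of all genes. Hspa8, a constitutive heat shock chaperone, was at 1506, 1573, 959 and 936 CPM and did not pass the threshold (log2 fold change 0.70, standard error 0.18, edgeR adjusted p = 0.382).

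**Figure D4:**
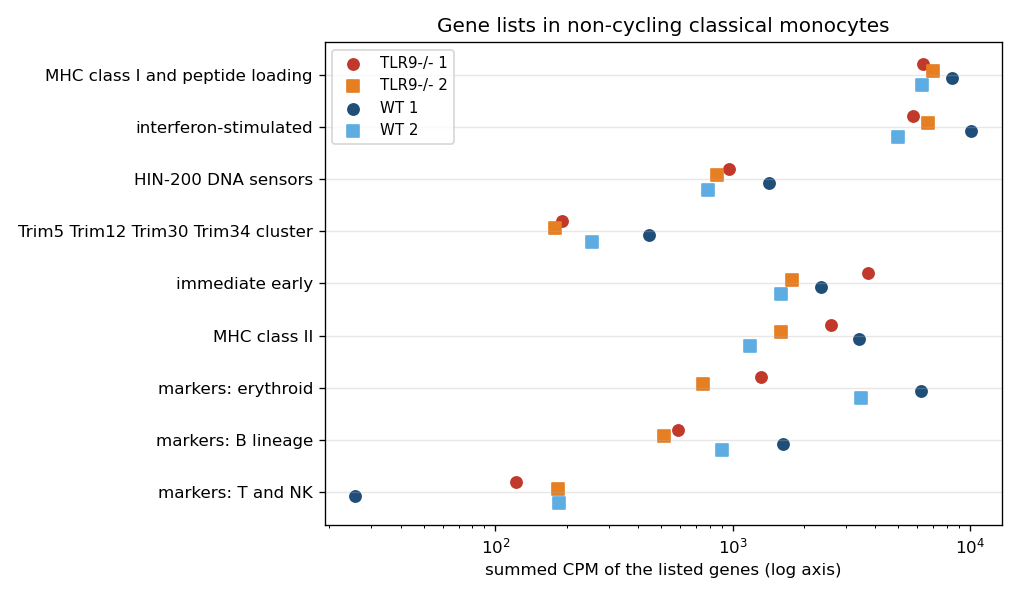
Summed CPM (x axis, log scale) of 9 gene lists (rows) in non-cycling classical monocytes, 1 point per library. The genotypes are separate for the TRIM cluster (192 and 179 CPM in TLR9-/-, 445 and 256 in WT), the erythroid and the B lineage markers, while the interferon-stimulated list runs from 4973 in WT library 2 to 10133 in WT library 1.

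The genotype was then compared within the cycling counterparts, which come from the same 4 mice and are no independent check. There 17 of 8673 genes were called (0.196%). Of the 28 genes called in the members, 27 were tested in the cycling cells, where 16 were called and all 27 kept their sign. Trim34a (log2 fold change -2.58, edgeR adjusted p = 0.0677) and Hpgd (1.70, edgeR adjusted p = 0.239) were among those not called there. Trim30d had a log2 fold change of -5.06 in the cycling cells beside -4.58 in the members, Cyp4f18 -2.58 beside -2.99, Arsb 2.27 beside 2.71 and Ocel1 1.69 beside 1.84, and all 4 were called in both. The difference between the classes was tested as an interaction with a term for the library. It was called for 9 of 8786 genes (0.102%). Without the library term 0 genes were called by edgeR's test.

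Apoe was 968, 1065, 880 and 1388 CPM in the members and 118, 119, 151 and 369 CPM in the cycling cells, where WT library 2 was the highest. Its genotype effect was 0.93 higher on the log2 scale in the members than in the cycling cells (standard error 0.14, edgeR adjusted p = 0.00306). Gm42031 fell by 2.47 in the members and had a log2 fold change of -0.89 in the cycling cells (edgeR adjusted p = 0.610), a difference of -1.52 (standard error 0.19, edgeR adjusted p = 0.000160). In the cycling cells it was at 140, 68.8, 182 and 205 CPM, against 37.5, 23.5, 149 and 187 in the members. The level was thus nearer between the 2 classes in WT than in TLR9-/-.

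**Figure D5:**
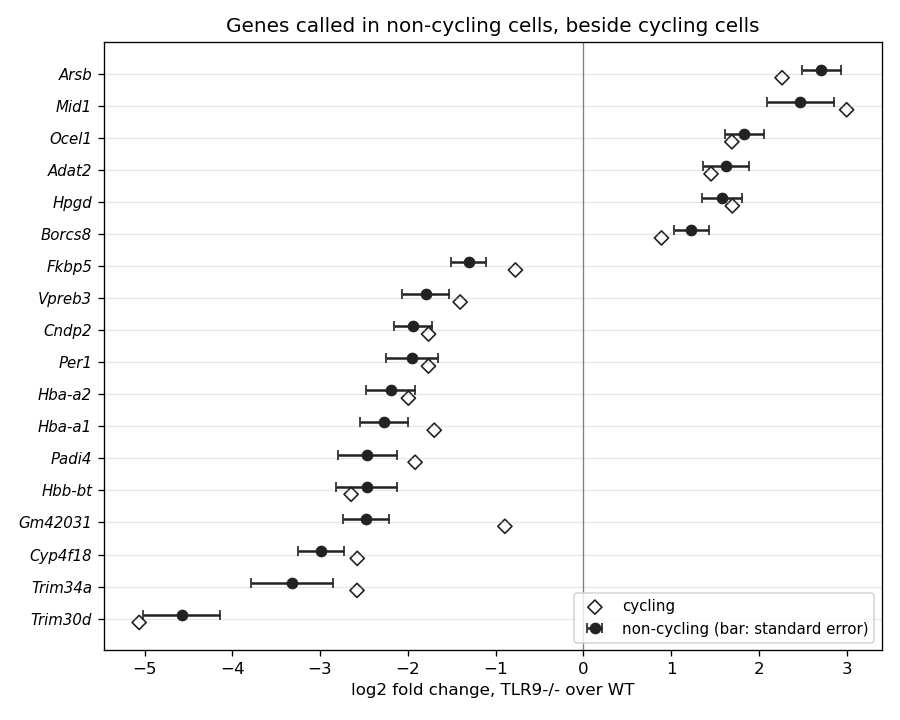
Log2 fold change of TLR9-/- over WT (x axis) for the 18 called genes with more than 3 UMIs per genotype in both classes (rows), with filled points for non-cycling members (bars, standard error) and open diamonds for cycling cells. Gm42031 lies at -2.47 in non-cycling and -0.89 in cycling cells, and Trim30d at -4.58 and -5.06.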

How the data were processed

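Bone marrow mononuclear cells of 4 mice were profiled by 10x Genomics 5′ sequencing. Per the file headers and the labels, the authors made the deposited counts with Cell Ranger and STAR on mm10; the values are UMI counts per gene and cell, not normalized. The Seurat version named in the submitters' processing notes is 2.3.4. Cells with 200 to 10000 genes and at most 10% mitochondrial UMIs were kept here (the methods print the limit as a percentage and it was read as a fraction). Doublets were not called; cells with transcripts of other lineages were left out in an alternative.

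The members, the 32 gene lists and the tests were chosen with earlier results of these data known. UMIs were summed over members per library and tested with edgeR 4.0.16 in R 4.3.3 (filterByExpr, TMM, quasi-likelihood test, Benjamini-Hochberg, threshold 0.05). CPM use TMM-scaled library sizes. DESeq2 1.42.0 served as an alternative. Shares were compared by an exact permutation test (scipy 1.17.1). The named genes were the 12 with the largest change in each direction among those called, with the same sign in both same-numbered pairs and at least 10 UMIs in each library of the higher genotype, immunoglobulin segments left out, plus called members of the lists and the most abundant ones where described, the genes that the study followed, the genes of the rule, the 15 leading genes and the 5 with the smallest interaction p. The fit was tested on simulated data. GENCODE M21 and RefSeq tables, both GRCm38, gave positions and sequences, and all 28 called genes had a position. Each library was a separate mouse. Precision was limited by 2 mice a genotype and by the total UMIs per library, and intervals cover counting error only.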

Additional observations from a re-analysis of the deposited data

Results flagged for a closer look

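The genotype effect differed between non-cycling and cycling cells for 9 genes by the interaction term, of which 6 are immunoglobulin or plasma cell transcripts that monocytes do not make. The difference (non-cycling minus cycling, log2 scale) was -9.80 for Igha, -9.58 for Jchain, -12.9 for Iglv2, -5.58 for Igkv6-15, -4.12 for Iglv1 and -3.25 for Iglc2. Igha and Jchain together had 583, 6, 2157 and 7 UMIs in the members (TLR9-/- 1, TLR9-/- 2, WT 1 and WT 2) and 2777, 2, 3 and 6 in the cycling cells. A single cell held 95.5% of these UMIs among the members of TLR9-/- library 1, 99.7% among those of WT library 1 and 99.4% among the cycling cells of TLR9-/- library 1. All 6626 Iglv2 UMIs of the cycling cells of TLR9-/- library 1 were in 1 cell.

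The other 3 genes were Apoe with a difference of 0.93, Gm42031 with -1.52 and the histone gene Hist1h4i with 1.68. Hist1h4i, which is transcribed in S phase, was at 31.4, 14.3, 28.9 and 14.5 CPM in the members and 42.9, 20.9, 112 and 86.5 CPM in the cycling cells.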

How the results depend on the processing

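None of the 28 called genes changed direction under the alternatives that tested it, and 9 were called in each of them (BC018473, Galnt9, Trim12a, Gm34084, Plekhg1, Trim30d, Cyp4f18, Cndp2 and Gm19951). Of 13 alternatives, Gm19951 was tested in 8, Plekhg1 in 10, Cyp4f18 in 13 and the rest of the 9 in 12. Gm19951 and Plekhg1 were not tested with thinned members. The counts of genes higher and lower, 10 and 18 as reported, were 6 higher with DESeq2, 41 and 78 without a filter on low counts, 29 and 59 with a replicate block on the library number, 3 and 10 with members thinned to 2000 UMIs, 0 and 1 in the 256 members with fewer than 3 UMIs of other-lineage markers, which include Ifitm6 (2267 genes tested, 120 at an unadjusted p under 0.05), and 6 higher without members with lymphoid, erythroid, basophil or megakaryocyte markers, an alternative chosen after seeing the data. Adat2, Borcs8, Fkbp5, Mid1, Per1, St6galnac2 and Trim5 were called neither with DESeq2 nor with thinned members, and Gm35082, Hpgd, Padi4, Trim34a and Vpreb3 not with thinned members. With members chosen on thinned cells, also chosen after seeing the data, 32 genes were called, 23 of them among the 28, and Adat2, Fkbp5, Hbb-bt and Vpreb3 were not. With 1 library left out the counts ranged from 7 to 28 and from 19 to 61, the lone library of a genotype being assumed to vary like the others. The interaction count of 9 was 0 without the library term, 36 without the filter, 3 with the replicate block and 13 to 25 with 1 library left out. The share ratio among all cells, 1.98, was 1.66 in cells with at least 2000 UMIs and 1.59 when those cells were also thinned. With 1 library left out it was 1.73 to 2.30, and the ratio among Lyz2-positive cells was 0.821 to 1.61. The log2 fold change ranged with 1 library left out from -0.99 to 0.55 for Cebpb, -0.48 to 1.43 for Fos and -0.24 to 0.059 for Csf1r. Libraries of the same number deviated together (r = 0.50 across 2453 genes), but the labels do not tie the number to the 2 experiments; with the replicate block Cebpd passed the threshold (adjusted p = 0.0420). Precision was limited by 2 mice a genotype and by 691150 member UMIs in the shallowest library. The cause of these changes was not tested.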
